A study of Xenopus laevis with 28 samples.

Results

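The first genes to be switched on in the *Xenopus laevis* embryo were followed by comparing whole embryos of Nieuwkoop and Faber (NF) stage 9, a late blastula (2 libraries), with embryos of stage 8, a mid-blastula (3 libraries), out of 28 libraries in the series. All were of the J strain, an inbred line, and the labels give no genotype or treatment beyond that. Each stage has a library from the clutch named Taira and one from the clutch named Ueno, and stage 8 has another from a second Ueno series of a later date. The polyA RNA came from whole embryos, so a level is an average over all cell types, and fewer cells of a type and less RNA per cell cannot be told apart. Gene models with a TPM (length-scaled share of the transcripts in a library) under 1 in all 3 oocyte and both egg libraries were called strictly zygotic. There were 26086 such models among 45831, and 19745 models with maternal RNA, meaning a TPM of at least 1 in any of those 5 libraries. A model was tested if its TPM reached 1 in at least 2 of 24 embryo and egg libraries, which left 8801 strictly zygotic and 19492 maternal models. A TPM under 1 in a polyA library does not show that the RNA was absent, because RNA with a short tail is captured poorly.

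In frogs the fertilised egg divides rapidly and with almost no transcription, running on RNA and protein that the mother stored in the oocyte. At the midblastula transition the cycles lengthen, and transcription factors inherited from the egg, among them Pou5f3, Sox3, Foxh1 and the beta-catenin partner Tcf7l1, act on the first zygotic genes. These genes include Nodal and Wnt ligands, organizer genes and regulators that divide the embryo into ectoderm, mesoderm and endoderm. *X. laevis* is allotetraploid, so most genes exist as 2 homeologs, marked L and S for the long and short subgenomes.

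At stage 9, 321 strictly zygotic models were higher than at stage 8 and 0 were lower, and 116 models with maternal RNA were higher and 0 lower (limma on log2(TPM + 1) with the clutch as a block, Benjamini-Hochberg adjusted p under 0.05 over all 28293 models tested). These counts are 3.65% of the strictly zygotic models tested, 0.595% of the maternal ones and 1.54% of all models tested (437 models). At an unadjusted p under 0.05, 678 strictly zygotic models were higher and 18 lower, and 400 maternal models were higher and 56 lower. Over all models tested 1078 were higher and 74 lower. With no change at all, a share of 0.05 would pass on average, which is more models than passed here. The spread of each model comes from all stages in the fit, so 0 lower does not show that no RNA fell. The median log2 difference over all models tested was -0.01, and it was -0.01 in each class. Of the 8801 strictly zygotic models tested, 6808 were under 1 TPM in all 5 libraries of stages 8 and 9. The median and the 3.65% of this class therefore describe mostly models that were low at both stages. Of the 931 with at least 1 TPM in both stage 9 libraries, a group set by stage 9 values, 303 were called. Among the called models the median log2 difference was 2.16 (0.73 to 5.83) in strictly zygotic models and 2.15 (0.83 to 5.29) in maternal ones. The lowest stage 9 library was above the highest stage 8 library in all 321 called strictly zygotic models and in 115 of the 116 maternal ones. Across all tested models, whether called or not, this held in 17.6% of strictly zygotic, 7.46% of maternal and 10.6% of all models, and the reverse order in 1.72%, 3% and 2.6% of them. The count of strictly zygotic calls was 177 without the stage 9 Taira library and 247 to 276 without any other single library, and that of maternal calls 73 without stage 9 Taira and 81 to 111 without another. The log2(TPM + 1) scale understates the change of low models, and on it a given gain of RNA moves an abundant maternal transcript less than an absent one.

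The strictly zygotic models were still a small part of the transcriptome. They made up 1.01% and 0.752% of all TPM in the Taira and Ueno libraries of stage 9, against 0.427%, 0.307% and 0.325% in the Taira, Ueno and second Ueno libraries of stage 8. The same 5 libraries held 1624 and 1142 strictly zygotic models of at least 1 TPM at stage 9, against 977, 689 and 562 at stage 8. The share of TPM in strictly zygotic models went on to 4.24% to 5.51% at stages 10 and 10.5. In eggs and oocytes it was 0.0744% to 0.173%. At stage 8 of the second Ueno series it includes 552 TPM of 1 unnamed model. It leaves out RNA gained by maternal models. The 116 called ones summed to 3542 and 3124 TPM in Taira and Ueno of stage 9. At stage 8 they summed to 700, 384 and 431 TPM in Taira, Ueno and the second Ueno series. The stage 8 Taira library stood apart from both Ueno libraries in the called models: its median TPM over the 321 was 0.44, against 0 in Ueno and 0.05 in the second series, while the stage 9 medians were 5.81 in Taira and 3.62 in Ueno. It was the highest of the 3 stage 8 libraries in 247 of the 321 called strictly zygotic models (76.9%). The 321 include 41 models listed at 0 in all 3, none of them counted for Taira. It was counted as highest in 86 of the 116 maternal ones (74.1%), including 3 listed at 0 in all 3 libraries. Of the other tested models with at least 1 TPM in a stage 8 library, it was the highest in 52.4%. These shares follow different rules on zeros and cannot be compared closely. Stage 9 Taira was at or above stage 9 Ueno in 257 of the 321 (80.1%), and the share over other models was not computed. Without the stage 8 Taira library 276 strictly zygotic and 111 maternal models were called. In the lists below, stage 9 values are given for Taira and then Ueno, and stage 8 values for Taira, Ueno and the second Ueno series. A log2 difference is stage 9 minus stage 8 on the log2(TPM + 1) scale with its standard error, and the adjusted p is that of limma over all models tested.

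**Figure D1:**
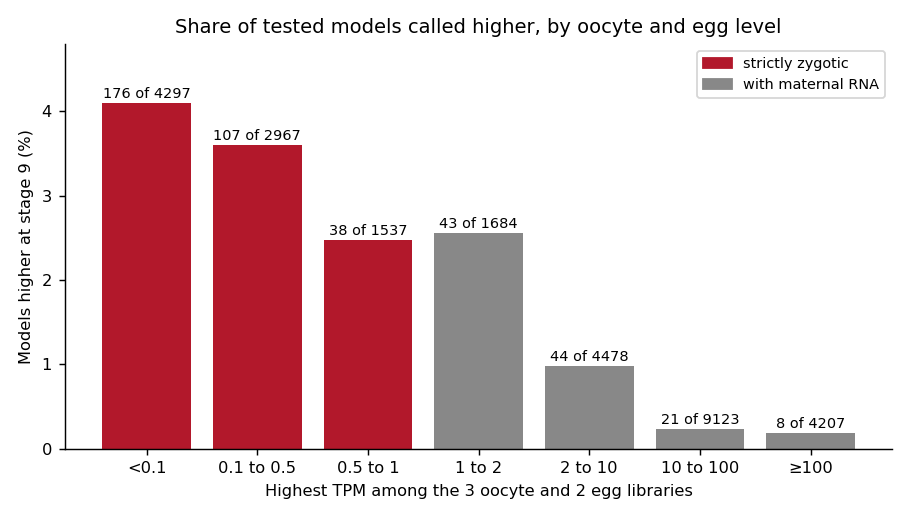
Percent of tested models called higher at stage 9 (vertical axis), grouped by the highest TPM among the 3 oocyte and 2 egg libraries (horizontal axis), with the number called of the number tested above each bar; red bars are strictly zygotic models and grey bars models with maternal RNA. The share is 4.1% in the lowest bin and 0.190% in the highest, with no step at the 1 TPM limit between the classes.

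The share of models called was smaller where the oocyte and egg level was higher, and the limit between the classes cut through a gradual slope, as the plot by oocyte and egg level shows. Of models that never exceeded 0.1 TPM in oocytes and eggs, 4.1% were called (176 of 4297), and the median of their stage 9 means was 0 TPM. Just inside the limit, at 0.5 to 1 TPM, 2.47% were called (38 of 1537), and just outside it, at 1 to 2 TPM, 2.55% (43 of 1684). At 10 to 100 TPM the share was 0.230% (21 of 9123) and above 100 TPM it was 0.190% (8 of 4207). In 109 of the 321 called strictly zygotic models TPM was listed at 0 in all 5 oocyte and egg libraries. Of the 116 called maternal models, 59 were under 1 TPM in both eggs, so their maternal RNA was seen in an oocyte library. *gadd45a.L*, a stress and growth arrest gene outside those 59, held more RNA in oocytes than in eggs: it had 60.2, 199 and 94.1 TPM in oocytes of stages 1-2, 3-4 and 5-6 and 8.82 and 1.24 TPM in the Taira and Ueno eggs. It had 38.1 and 24.3 TPM at stage 9, against 4.23, 0.63 and 0.93 TPM at stage 8, a log2 difference of 3.45 ± 0.55, adjusted p = 0.00154. Both stage 9 libraries were above all 3 stage 8 libraries. Among the called strictly zygotic models, 312 of the 321 would have passed the filter on low values without counting the stage 9 libraries. Few were abundant: 97 of the 321 averaged at least 10 TPM at stage 9, 218 averaged 1 to 10 TPM and 6 less than 1. No symbol is attached to 176 of the 321.

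The strictly zygotic genes named here are the 15 called genes with a symbol and the largest differences. Each averaged at least 10 TPM at stage 9 without overlap, and 1 copy a gene was taken. Some unnamed models, such as Xelaev18036057m, had differences of the same size (log2 difference 5.22). *foxi4.2.L* had 83.5 and 118 TPM at stage 9, against 2.68, 0.26 and 0.38 TPM at stage 8, a log2 difference of 5.83 ± 0.50, adjusted p = 4.00e-06. It encodes a forkhead factor of the ectodermal Foxi family, and each stage 9 library exceeded the highest stage 8 library by a wide margin. *foxh1.2.L* had 70.2 and 141 TPM at stage 9, against 4.12, 0.37 and 1.43 TPM at stage 8 (log2 difference 5.34 ± 0.54, adjusted p = 1.69e-05), and this is a second gene of the family of Foxh1, the forkhead partner of Smad proteins in Nodal signalling. *cdc25b.L* had 56.3 and 49 TPM at stage 9, against 0.78, 0.23 and 0.14 TPM at stage 8 (log2 difference 5.33 ± 0.27, adjusted p = 3.39e-08), with the stages far apart and the 3 stage 8 libraries all under 1 TPM. Cdc25 phosphatases activate the cyclin-dependent kinases that drive mitosis. *LOC100489561-like.L*, which carries no functional name, had 90.2 and 59.7 TPM at stage 9 against 9.08, 0 and 0.36 TPM at stage 8 (log2 difference 4.87 ± 0.57, adjusted p = 6.00e-05). Next were *sp5l.L*, a zinc finger gene known as a Wnt target, and *hal.1.L*, the gene of the histidine-degrading enzyme histidine ammonia-lyase. *hal.1.L* had 38.3 and 19.2 TPM at stage 9, against 0.95, 0.14 and 0 TPM at stage 8 (log2 difference 4.34 ± 0.32, adjusted p = 9.74e-07). In the dot plot of these genes the stage 8 Taira library is the highest of stage 8 in every row.

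**Figure D2:**
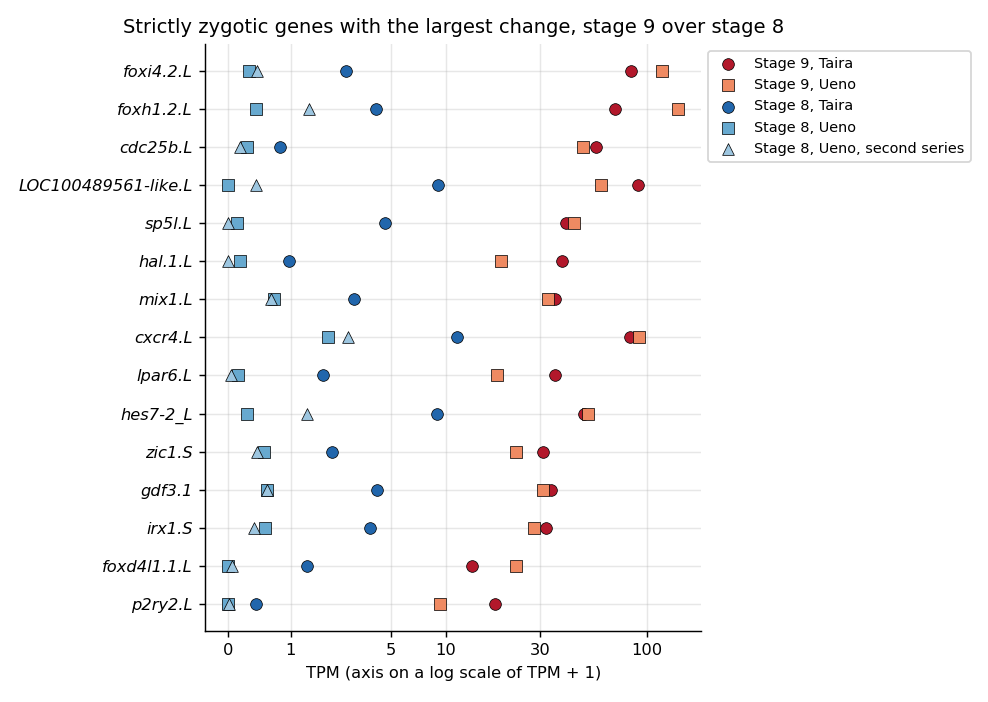
TPM in each library (horizontal axis, log scale of TPM + 1) of the 15 strictly zygotic genes with a symbol chosen for the largest log2 difference, 1 copy a gene (rows, largest at the top); red and orange points are stage 9 Taira and Ueno, dark blue, blue and pale blue points stage 8 Taira, Ueno and second Ueno series. In each row both stage 9 points lie to the right of all stage 8 points, as the choice required. Stage 8 Taira is the rightmost of the stage 8 points in each row.

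Receptor genes were in this group. *cxcr4.L* had 83 and 90.9 TPM at stage 9, against 11.5, 2.01 and 2.74 TPM at stage 8 (log2 difference 3.99 ± 0.35, adjusted p = 5.14e-06). It encodes the chemokine receptor that reads Cxcl12 in migrating cells, and its 3 stage 8 values were already above 1 TPM. *lpar6.L* had 35.8 and 18.3 TPM at stage 9, against 1.84, 0.12 and 0.04 TPM at stage 8 (log2 difference 3.95 ± 0.38, adjusted p = 1.28e-05) and encodes a lysophosphatidic acid receptor. *p2ry2.L* had 17.8 and 9.28 TPM at stage 9, against 0.36, 0 and 0.01 TPM at stage 8 (log2 difference 3.58 ± 0.25, adjusted p = 6.99e-07), a receptor for extracellular nucleotides. None of the 3 genes had overlapping stages, as the choice of the 15 required. The other genes of the 15, described with their pathways below, were *mix1.L*, *hes7-2_L*, *zic1.S*, *gdf3.1*, *irx1.S* and *foxd4l1.1.L*. Of the 15, the call of *hes7-2_L* was lost without the stage 9 Ueno library (adjusted p = 0.06, log2 difference 3.57) and no other call was lost when a single library was left out.

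The maternal genes named next were called ones with the largest differences, a stage 9 mean of at least 10 TPM and no overlap. Their lack of overlap was thus fixed by the choice. Among models with maternal RNA, the largest named difference was in *gs17.L*, a gene known for its expression in the gastrula. It passed the 1 TPM limit only in the stage 3-4 oocyte at 1.92 TPM. It had 139 and 149 TPM at stage 9, against 8.94, 1.23 and 2.34 TPM at stage 8 (log2 difference 5.12 ± 0.50, adjusted p = 1.32e-05) and 1136 to 2480 TPM in the 3 libraries of stages 10 and 10.5. *pou5f3.2.S* had 92.6 and 145 TPM at stage 9, against 8.54, 3.24 and 4.31 TPM at stage 8 (log2 difference 4.35 ± 0.41, adjusted p = 9.23e-06), a POU factor gene of the Oct4 family, with an oocyte level of at most 1.61 TPM. *rasl11b.L* had 41.8 and 60.9 TPM at stage 9, against 7.64, 1.25 and 1.41 TPM at stage 8 (log2 difference 3.88 ± 0.48, adjusted p = 1.09e-04) and encodes a Ras-like protein. The stages did not overlap in these 3 genes, and none of their calls was lost when a single library was left out. In *rasl11b.L* and *dusp5.L* the oocytes and eggs held 2.46 to 7.2 TPM, more than the Ueno libraries of stage 8. *adamts1.L*, a secreted metalloprotease gene, had 44.7 and 36.9 TPM at stage 9 against 7.75, 2.47 and 2.63 TPM at stage 8 (log2 difference 3.05 ± 0.31, adjusted p = 1.58e-05). *MGC76328.L*, a gene with no functional name, had 30.9 and 34.6 TPM at stage 9 against 2.24, 0.73 and 0.4 TPM at stage 8 (log2 difference 4.12 ± 0.40, adjusted p = 1.38e-05). Both stage 9 libraries were above every stage 8 library in both genes, as the choice required.

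A different set of strictly zygotic models was already present at stage 8, mostly without a call between the stages. In 383 strictly zygotic models all 3 stage 8 libraries had at least 1 TPM. Of these, 9 were called higher at stage 9, the median log2 difference was 0.04, and 284 had reached at least 0.5 TPM in an oocyte or egg library, just under the class limit. Only 5 of the 383 were under 0.1 TPM in all oocyte and egg libraries. Models with the highest means at stage 8 were of 3 kinds. *znf238.2.L*, a zinc finger repressor gene, had 22.6 and 15.8 TPM at stage 9 against 20.6, 13.9 and 13.3 TPM at stage 8, with the stages overlapping (log2 difference 0.06 ± 0.49, adjusted p = 1). *sh3pxd2b.S*, *tnrc6c-like.S*, *LOC100494483.L* and an unnamed model lay between 9.28 and 25.4 TPM in the same 5 libraries, with log2 differences of -0.05 to 0.32 and adjusted p = 1 in each. All 5 were under 1 TPM in oocytes and eggs, but their highest values there were 0.75 to 0.97 TPM, just under the class limit. The second kind (3 models) was much lower in both Ueno libraries of stage 8 than in Taira and rose. The unnamed model Xelaev18044793m had 272 and 177 TPM at stage 9 against 34.7, 1.56 and 1.57 TPM at stage 8 (log2 difference 5.05 ± 0.69, adjusted p = 3.16e-04). *Xetrov90009976m.L*, which has no functional name, had 136 and 237 TPM at stage 9 against 53.8, 9.35 and 5.6 TPM at stage 8 (log2 difference 3.57 ± 0.70, adjusted p = 0.00987), and its call was lost without any single library other than stage 8 Taira (adjusted p = 0.0506 to 0.21). The third kind is 1 unnamed model seen only in the second Ueno series.

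Among genes of the activators, those called were mostly relatives with little maternal RNA. Of 44 tested models of transcription factors that are known or likely to act on the first zygotic genes, 4 were higher (9.09%, beside 1.54% of all models tested) and 0 lower, with a median log2 difference of -0.06 (-0.01 over all models tested). The 4 were *pou5f3.2.S*, *foxh1.2.L*, *pou5f3.1.L* and *pou5f3.1.S*. Of the 10 strictly zygotic models 3 were called (30%, beside 3.65% of that class). Of the 34 models with maternal RNA 1 was called (2.94%, beside 0.595% of all maternal models tested). *pou5f3.3.L*, the abundant maternal POU gene, had 592 and 1016 TPM at stage 9 against 632, 1076 and 1187 TPM at stage 8 (log2 difference -0.19 ± 0.39, adjusted p = 1), and its stage 9 values lay within or below the stage 8 range. By contrast *pou5f3.1.L* had 17.5 and 15.4 TPM at stage 9, against 1, 1.03 and 0.62 TPM at stage 8 (log2 difference 3.29 ± 0.39, adjusted p = 6.48e-05), with all 3 stage 8 values near or under 1 TPM. *foxh1.L* had 418 and 663 TPM at stage 9 against 439, 753 and 900.2 TPM at stage 8 (log2 difference -0.29 ± 0.35, adjusted p = 1), and the maternal ectodermal factor gene *foxi2.L* had 219 and 371 TPM at stage 9 against 220.3, 416 and 436 TPM at stage 8 (log2 difference -0.20 ± 0.34, adjusted p = 1). *sox3.S*, a SoxB1 gene, was at 721 to 1324 TPM in all 5 libraries and *tcf7l1.L*, which represses Wnt targets until beta-catenin binds it, lay between 32.3 and 53.0 TPM, and both had adjusted p = 1. TPM is scaled per length, so in these pairs the zygotic relative was still the lower of the pair at stage 9 in both clutches.

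**Figure D3:**
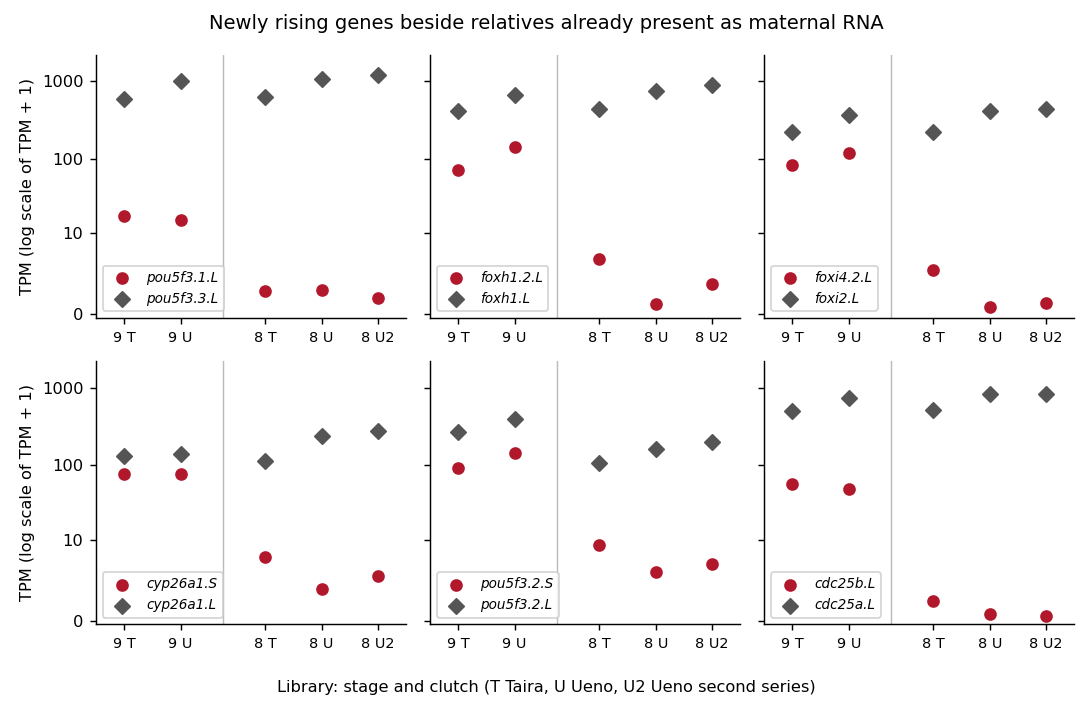
TPM (vertical axis, log scale of TPM + 1) in the 2 stage 9 and 3 stage 8 libraries (horizontal axis; T Taira, U Ueno, U2 second Ueno series) of 6 pairs of related genes; red circles are the copy or relative called higher, grey diamonds one with abundant maternal RNA. Red points climb toward the grey ones at stage 9, and grey points differ less between stages, with *pou5f3.2.L* (log2 difference 1.23, adjusted p = 0.452) not called.

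In the Nodal pathway the called models were ligands and an inhibitor, and no receptor or coreceptor model was called. Nodal proteins are Tgf-beta ligands. Most of them induce mesendoderm through Activin receptors and a Cripto coreceptor, and Lefty is their feedback inhibitor. Of 33 tested models 8 were higher (24.2%, beside 1.54% of all models tested) and 0 lower (median log2 difference 0.14). All 8 were among the 15 strictly zygotic ones (53.3%, beside 3.65% of that class). The 18 maternal models gave 0 calls, beside 0.595% of that class, so 0 calls there is near the background. *gdf3.1* had 34.1 and 31.2 TPM at stage 9, against 4.18, 0.53 and 0.54 TPM at stage 8 (log2 difference 3.85 ± 0.42, adjusted p = 3.60e-05), a Tgf-beta family ligand gene. *nodal.L* had 6.8 and 3.58 TPM at stage 9, against 0.27, 0 and 0 TPM at stage 8 (log2 difference 2.42 ± 0.33, adjusted p = 3.18e-04), with the stages not overlapping. *lefty.L* had 12.7 and 11.5 TPM at stage 9, against 0.59, 0.11 and 0.02 TPM at stage 8 (log2 difference 3.40 ± 0.56, adjusted p = 0.00184), so the antagonist was higher at stage 9 alongside the ligands. *nodal6.L* had 15.4 and 4.88 TPM at stage 9 against 3.69, 0.96 and 0.07 TPM at stage 8 (log2 difference 2.09 ± 0.50, adjusted p = 0.0444), with the lowest stage 9 library little above the highest stage 8 library. The calls of *nodal6.L*, *nodal6.S*, *nodal3.L3*, *nodal3.L* and *nodal2.L* were lost without the stage 9 Taira library (adjusted p = 0.0763 to 0.898), and those of *nodal6.L*, *nodal6.S* and *nodal3.L3* also without some other single libraries (0.0536 to 0.237). Those of *gdf3.1*, *nodal.L* and *lefty.L* held without each of the 5 in turn. *nodal1.L* just missed the threshold with 4.78 and 1.15 TPM at stage 9 against 0.75, 0 and 0.05 TPM at stage 8 (log2 difference 1.38 ± 0.34, adjusted p = 0.0522). *nodal1.S* was split by clutch rather than stage, with 0 and 4.75 TPM at stage 9 against 0.11, 4.23 and 6.7 TPM at stage 8. The coreceptor *tdgf1.3.L* had 318 and 272 TPM at stage 9 against 239, 187 and 187 TPM at stage 8 and the maternal antagonist *dand5.L* 265 and 417 TPM at stage 9 against 273, 433 and 481 TPM at stage 8, neither called (adjusted p = 1). Both stage 9 libraries of *tdgf1.3.L* were above all 3 stage 8 libraries, an order held by 10.6% of all tested models. Some of the nodal genes are similar tandem copies, so reads may be divided among those by the authors' estimation.

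Of 43 tested models of Wnt targets and organizer genes 16 were higher and 0 lower (median log2 difference 0.86). The calls were 37.2% of the list, beside 1.54% of all models tested. They were 14 of the 30 strictly zygotic ones (46.7%, beside 3.65% of that class) and 2 of the 13 maternal ones (15.4%, beside 0.595%). Among ligands, *wnt8a.L* had 14.9 and 11.4 TPM at stage 9, against 1.01, 0 and 0.06 TPM at stage 8 (log2 difference 3.40 ± 0.46, adjusted p = 3.06e-04), a ventrolateral Wnt, and *admp.S* had 11.9 and 7.41 TPM at stage 9, against 1.04, 0 and 0.02 TPM at stage 8 (log2 difference 2.95 ± 0.35, adjusted p = 7.43e-05), a Bmp-like ligand of the organizer. Neither overlapped between stages. Among secreted inhibitors, *dkk1.L* had 11.6 and 9.38 TPM at stage 9, against 0.79, 0 and 0 TPM at stage 8 (log2 difference 3.27 ± 0.32, adjusted p = 1.47e-05), a Wnt antagonist, and its S copy had 12.8 and 10.1 TPM at stage 9 against 1.18, 0 and 0.31 TPM at stage 8. Among transcription factors, *sp5l.L* had 40.4 and 44 TPM at stage 9, against 4.62, 0.11 and 0 TPM at stage 8 (log2 difference 4.49 ± 0.49, adjusted p = 3.26e-05), and *not.S*, a notochord homeobox gene, had 71.8 and 83.7 TPM at stage 9 against 14.5, 2.65 and 5.35 TPM at stage 8 (log2 difference 3.48 ± 0.44, adjusted p = 1.52e-04). The homeobox gene *gsc.L*, a hallmark of the organizer, was low, with 4.28 and 3.03 TPM at stage 9 against 0.22, 0 and 0.03 TPM at stage 8 (log2 difference 2.05 ± 0.40, adjusted p = 0.0089), and its call was lost without either stage 9 library (adjusted p = 0.142 without Taira, 0.0942 without Ueno). Of the other 15, the calls of *foxa4.S*, *admp.L*, *pnhd.L*, *pnhd.S* and *fzd8.L* were lost without stage 9 Taira (adjusted p = 0.066 to 0.358), and that of *foxa4.S* without any of the 5 libraries (0.0639 to 0.358). *gsc.S* carried maternal RNA and had 18.9 and 19 TPM at stage 9 against 8.14, 8.2 and 7.55 TPM at stage 8, without overlap but not called (adjusted p = 0.526). *chrd.L1*, a Bmp antagonist gene, was under 1 TPM in all 5 libraries, and *wnt11b.L*, a maternal Wnt, lay between 79.2 and 124 TPM.

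Of 39 tested models of mesoderm and endoderm regulators 13 were higher and 0 lower (median log2 difference 0.62). The calls were 33.3% of the list, beside 1.54% of all models tested. They were 10 of the 29 strictly zygotic ones (34.5%, beside 3.65% of that class) and 3 of the 10 maternal ones (30%, beside 0.595%). *mix1.L* had 35.8 and 33 TPM at stage 9, against 3.01, 0.66 and 0.61 TPM at stage 8 (log2 difference 4.03 ± 0.41, adjusted p = 1.69e-05), a paired-type homeobox gene of mesendoderm. *eomes.L* had 12.2 and 9.84 TPM at stage 9, against 0.7, 0.08 and 0.09 TPM at stage 8 (log2 difference 3.27 ± 0.40, adjusted p = 1.06e-04), a mesodermal T-box gene. *sox17b.1.L* had 47.7 and 53 TPM at stage 9, against 14.9, 2.48 and 2.28 TPM at stage 8 (log2 difference 3.12 ± 0.44, adjusted p = 4.29e-04), an endodermal HMG box gene whose stage 8 Taira value was far above both Ueno values. None of these 3 overlapped between the stages. *snai1.S* had 60.6 and 53.6 TPM at stage 9, against 6.82, 10.7 and 7.22 TPM at stage 8 (log2 difference 2.69 ± 0.25, adjusted p = 7.36e-06), a zinc finger repressor of cadherin genes with maternal RNA. Calls of *mixer.L* and *sox17a.S* were lost without stage 9 Taira (adjusted p = 0.148 and 0.0627). The T-box gene *t.S* (brachyury) had 3.82 and 3.3 TPM at stage 9 against 0.94, 0.39 and 0.2 TPM at stage 8 and missed the threshold (log2 difference 1.59 ± 0.40, adjusted p = 0.0637). *myod1.L*, the muscle determination gene, had maternal RNA and 36.3 and 29.3 TPM at stage 9 against 26.6, 15.3 and 31.1 TPM at stage 8, not called (adjusted p = 1).

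On the ventral side, 11 of 39 tested models of the Bmp pathway and its ventral targets were higher and 0 lower (median log2 difference 0.49). The calls were 28.2% of the list, beside 1.54% of all models tested. They were 8 of the 17 strictly zygotic ones (47.1%, beside 3.65% of that class) and 3 of the 22 maternal ones (13.6%, beside 0.595%). Most were homeobox genes downstream of Bmp. *ventx3.2.L* had 17.6 and 8.67 TPM at stage 9, against 1.27, 0 and 0.17 TPM at stage 8 (log2 difference 3.16 ± 0.33, adjusted p = 2.41e-05). *ventx1.2.L* had 5.19 and 3.7 TPM at stage 9, against 0, 0 and 0 TPM at stage 8 (log2 difference 2.43 ± 0.28, adjusted p = 5.90e-05), so it was listed at 0 in every stage 8 library. *dlx5.S*, an ectodermal homeobox gene, had 11.1 and 14.6 TPM at stage 9 against 1.66, 0.15 and 0.43 TPM at stage 8 (log2 difference 3.14 ± 0.38, adjusted p = 8.49e-05). The ligand *bmp4.S* had 7.3 and 4.18 TPM at stage 9 against 1.32, 0.58 and 0.95 TPM at stage 8 (log2 difference 1.70 ± 0.33, adjusted p = 0.00899), with no overlap between stages. Its call was lost without either stage 9 library (adjusted p = 0.197 without Taira, 0.0606 without Ueno), as were those of *ventx1.1.L* (0.125 and 0.115, and 0.0509 without the second Ueno series). Those of *msx1.S* (0.234), *ventx3.2.S* (0.0625) and *hes4_L* (0.41, and 0.0765 without stage 8 Ueno) were lost without stage 9 Taira. Maternal Bmp feedback genes were abundant at both stages. *id2.S*, an inhibitor of bHLH factors, had 418 and 634 TPM at stage 9 against 400.4, 679 and 759 TPM at stage 8, and *bambi.S*, a decoy receptor, had 73.6 and 113 TPM at stage 9 against 76.2, 127 and 140.1 TPM at stage 8, neither called (adjusted p = 1). The ventx genes are also tandem copies with similar sequence.

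Ectoderm and neuroectoderm regulators gave 18 higher and 0 lower among 46 tested models (median log2 difference 0.87). The calls were 39.1% of the list, beside 1.54% of all models tested. They were 14 of the 26 strictly zygotic ones (53.8%, beside 3.65% of that class) and 4 of the 20 maternal ones (20%, beside 0.595%). Beside *foxi4.2.L*, its S copy had 70.3 and 92.2 TPM at stage 9 against 5.93, 0.12 and 0.93 TPM at stage 8 (log2 difference 5.08 ± 0.59, adjusted p = 5.95e-05). *zic1.S* had 31 and 22.9 TPM at stage 9, against 2.16, 0.49 and 0.38 TPM at stage 8 (log2 difference 3.85 ± 0.37, adjusted p = 1.22e-05), a zinc finger gene of the neural plate. *foxd4l1.1.L* had 13.7 and 22.9 TPM at stage 9, against 1.4, 0 and 0.05 TPM at stage 8 (log2 difference 3.77 ± 0.39, adjusted p = 1.76e-05), a forkhead gene of the earliest neural ectoderm, and Ueno was above Taira at stage 9. *irx1.S* had 32.2 and 28.1 TPM at stage 9, against 3.8, 0.51 and 0.34 TPM at stage 8 (log2 difference 3.80 ± 0.39, adjusted p = 1.83e-05), an Iroquois homeobox gene. *sox2.S* had 28.2 and 30.4 TPM at stage 9, against 4.28, 1.35 and 1.55 TPM at stage 8 (log2 difference 3.34 ± 0.42, adjusted p = 1.42e-04), a SoxB1 gene that passed the 1 TPM limit in the Ueno egg alone. All 5 had both stage 9 libraries above the 3 of stage 8. *grhl3.L*, a regulator of epidermis, had 15 and 6.1 TPM at stage 9 against 1.06, 0 and 0.02 TPM at stage 8 (log2 difference 2.83 ± 0.55, adjusted p = 0.00847). Its call and that of *foxi1.L* were lost without either stage 9 library (adjusted p = 0.0909 to 0.227), that of *foxi1.L* also without the second Ueno series (0.057), and that of *irx2.L* without stage 9 Ueno (0.0571). Among abundant maternal models of the list, the epithelial keratin gene *krt8.L* was at 393 and 558 TPM at stage 9 against 394, 644 and 788 TPM at stage 8 and *gmnn.S*, the gene of the replication inhibitor geminin, at 1573 and 1087 TPM at stage 9 against 1538, 928 and 699 TPM at stage 8, both with adjusted p = 1.

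In the list of Fgf, Notch and other signalling feedback, 22 of 48 tested models were higher and 0 lower (median log2 difference 1.22). The calls were 45.8% of the list, beside 1.54% of all models tested. They were 12 of the 23 strictly zygotic ones (52.2%, beside 3.65% of that class) and 10 of the 25 maternal ones (40%, beside 0.595%). Like the other lists, this one was drawn up with earlier results of these data known, so the shares are descriptions. The list also takes in genes outside these pathways, among them *hal.1*, *gs17*, *lpar6*, *rasl11b*, *cyp26a1*, *cxcr4* and *aplnr*. Each of these has a called model in the count, so 45.8% is not a share of Fgf and Notch genes alone. Among Fgf components, *fgf8.L* had 6.48 and 5.16 TPM at stage 9, against 0.24, 0 and 0.02 TPM at stage 8 (log2 difference 2.63 ± 0.38, adjusted p = 6.12e-04), a ligand gene, and *dusp5.L* had 36.1 and 35.8 TPM at stage 9, against 2.76, 1.65 and 0.92 TPM at stage 8 (log2 difference 3.75 ± 0.25, adjusted p = 6.99e-07), a phosphatase that switches off Erk. *dusp6.L* had 10.2 and 8.13 TPM at stage 9, against 2.03, 0.99 and 1.51 TPM at stage 8 (log2 difference 2.00 ± 0.24, adjusted p = 6.48e-05), a related Erk phosphatase. These 3 did not overlap between stages. Among Notch components, *dlc.L* had 5.26 and 4.8 TPM at stage 9, against 0.49, 0.06 and 0 TPM at stage 8 (log2 difference 2.28 ± 0.35, adjusted p = 9.03e-04), a Delta-family ligand gene, and *hes7-2_L* had 49.1 and 51.4 TPM at stage 9, against 8.97, 0.23 and 1.4 TPM at stage 8 (log2 difference 3.95 ± 0.64, adjusted p = 0.00169), a repressor of the Hairy and Enhancer of split family. The proneural bHLH gene *neurog3.S* had 7.26 and 12.1 TPM at stage 9 against 0.68, 0.13 and 0.33 TPM at stage 8 (log2 difference 2.99 ± 0.30, adjusted p = 1.69e-05), with Ueno the higher library at stage 9. Calls of *fgf8.S*, *dll1.L* and *aplnr.L* were lost without each single library in turn (adjusted p = 0.0631 to 0.657), that of *dusp6.S* in 3 of the 5 cases (0.0592 to 0.162), and that of *fgf20.S* without stage 9 Ueno (0.0567). *spry2.S*, an Fgf feedback inhibitor gene, had 15.7 and 12.7 TPM at stage 9 against 6.38, 3.58 and 5.79 TPM at stage 8, not called (adjusted p = 0.0778), and the receptor gene *fgfr1.L* had 55.4 and 99.6 TPM at stage 9 against 57.4, 103 and 100.5 TPM at stage 8, not called (adjusted p = 1).

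In the list of cell cycle machinery *cdc25b* alone was called. Of 41 tested models 2 were higher (4.88%, beside 1.54% of all models tested) and 0 lower (median log2 difference -0.02). The 2 were *cdc25b.L* and *cdc25b.S*, out of 6 strictly zygotic models in the list (33.3%, beside 3.65% of that class). None of the 35 with maternal RNA was called, beside 0.595% of that class, so 0 calls there is near the background. *cdc25b.S* had 33.9 and 27 TPM at stage 9, against 1.36, 1.79 and 1.6 TPM at stage 8 (log2 difference 3.62 ± 0.27, adjusted p = 9.74e-07), and its 3 stage 8 values lay close together. *cdc25a.L*, the maternal member of the family, had 498 and 744 TPM at stage 9 against 511, 841 and 821 TPM at stage 8 (log2 difference -0.17 ± 0.23, adjusted p = 1). The cyclin genes *ccna1.L* and *ccnb2.L* had 1473 and 2078 TPM at stage 9 against 1603, 2481 and 2089 TPM at stage 8 and 628 and 1004 TPM at stage 9 against 642, 1194 and 1053 TPM at stage 8, with the stages overlapping (adjusted p = 1 each). *chek1.L*, the checkpoint kinase that slows the cycles at this time, had 87.4 and 86.1 TPM at stage 9 against 83, 100.2 and 103 TPM at stage 8 (log2 difference -0.16 ± 0.25, adjusted p = 1). No model was called among 23 replication factors (median log2 difference 0.07), 15 histones and chaperones (0.09), 43 clearance factors of maternal RNA (-0.02) and 41 components of the transcription machinery (-0.07). Of these models 120 carry maternal RNA. In that class 0.595% of all tested models were called, so 0 calls is near the background. With a pseudocount of 5, 1 clearance model was called lower. The clearance list includes *cpeb1.S*, the polyadenylation regulator of the oocyte, which had 147 and 143 TPM at stage 9 against 282, 239.7 and 210.4 TPM at stage 8, a log2 difference of -0.78 ± 0.22, adjusted p = 0.143, with no overlap. Of 35 tested markers of later tissues 0 were called, beside 1.54% of all models tested, so 0 calls is near the background. With a pseudocount of 0.1, 2 of them were called higher. In all 5 libraries 31 of the 35 were under 2 TPM. The 37 models found of the list, tested or not, summed to 61.4 and 53.6 TPM at stage 9 against 49.6, 31.0 and 42.1 TPM at stage 8, most of it *myod1.L* and *ckm.L*. The 15 tested oocyte and follicle markers, all in the maternal class, also gave 0 calls. Beside 0.595% of that class this is near the background. The 30 models found of that list summed to 765 and 749.6 TPM at stage 9 against 707, 686 and 806 TPM at stage 8.

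Where a strictly zygotic gene rose and both homeologs were tested, both were called in about as many pairs as 1 alone. Pairs with a copy below the filter on low values, such as *lefty*, were left out of these counts. Of 1035 tested pairs in which both copies are strictly zygotic, 30 had both copies called, 28 had 1 copy called (13 the L copy, 15 the S copy) and 977 none. In 57 of these 58 pairs the log2 difference was above 0 in both copies, but the choice by a call fixed this for 1 copy. Of 3840 tested pairs with both copies maternal, 7 had both copies called and 20 had 1. Of 834 mixed pairs, 9 had both copies called and 19 had 1. A call in 1 copy alone does not show that the copies differ, so the ratio of L to S was tested directly with the same limma fit in 5547 pairs of sufficient level, and it changed in 38 (0.685%), with 21 toward L and 17 toward S. Among the 174 of these pairs with both copies strictly zygotic it changed in 14 (8.05%). In several of them both copies were near 0 TPM at stage 8. *p2ry2*, for example, had 0.36, 0 and 0.01 TPM (L) and 0, 0.13 and 0.04 TPM (S) at stage 8. In such pairs the pseudocount holds the stage 8 ratio near equality. The change then mostly describes the difference between the copies at stage 9, and no stage 8 ratio was measured. The level of a pair was judged on the compared libraries themselves, so a pair could enter on its stage 9 values alone. The 8.05% therefore describes pairs partly selected on the values tested, and it is not a measure for strictly zygotic pairs in general. At an unadjusted p under 0.05, 146 of the 5547 pairs passed. With no change at all a share of 0.05 would pass on average, which is more pairs, so this count is not a result about the pairs. The call count was 6 without stage 9 Taira, 5 without stage 9 Ueno and 24 without the second Ueno series, so the individual pairs rest on few libraries.

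**Figure D4:**
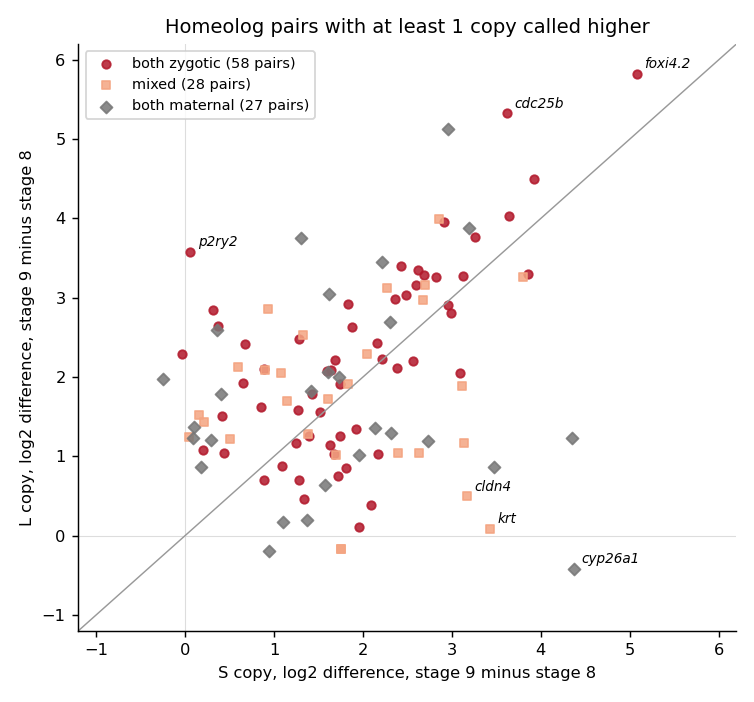
Log2 difference, stage 9 minus stage 8, of the L copy (vertical axis) against that of the S copy (horizontal axis) in the pairs with both copies tested and at least 1 called higher. Red circles are pairs with both copies strictly zygotic, orange squares mixed pairs and grey diamonds pairs with both copies maternal, and the diagonal marks equal change. Most points lie in the upper right, and *p2ry2* (L copy high) and *cyp26a1* (S copy high) lie far from the diagonal.

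The pairs described are the 8 with the largest called change and a sum of at least 10 TPM. *cyp26a1*, the gene of the enzyme that degrades retinoic acid, had the largest change in ratio (log2 L to S -4.79 ± 0.55, adjusted p = 1.14e-04). Its S copy had 77.5 and 77.5 TPM at stage 9, against 5.65, 1.6 and 2.78 TPM at stage 8. Its L copy had 131 and 139 TPM at stage 9, against 114, 237 and 279.6 TPM at stage 8 and reached 782 TPM in the oocyte and egg libraries. Both copies are in the maternal class. The copies summed to 208 and 216 TPM at stage 9, against 119, 238 and 282 TPM at stage 8. The total was higher at stage 9 in Taira and lower in Ueno. *cldn4*, a tight junction claudin gene, also moved toward S (log2 L to S -2.67 ± 0.29, adjusted p = 1.01e-04): the strictly zygotic S copy had 15.4 and 12.8 TPM at stage 9, against 1.73, 0.24 and 0.32 TPM at stage 8, and the maternal L copy 128 and 116 TPM at stage 9, against 98.4, 80.7 and 79 TPM at stage 8. *pou5f3.2* (log2 L to S -3.12 ± 0.44, adjusted p = 0.00111) and *not* (log2 L to S -2.61 ± 0.47, adjusted p = 0.00936) also moved toward S, with both copies higher on average at stage 9. In *p2ry2* (log2 L to S 3.52 ± 0.40, adjusted p = 1.14e-04) and *lefty* (log2 L to S 3.46 ± 0.55, adjusted p = 0.00298) both copies are strictly zygotic, and the L copy alone was called: the S copies were at most 0.14 and 0.11 TPM in the 5 libraries. The S copy of *lefty* did not pass the filter on low values and was not tested on its own. *dusp5* moved toward L (log2 L to S 2.45 ± 0.48, adjusted p = 0.0219) and the keratin gene labelled *krt* toward S (log2 L to S -3.34 ± 0.29, adjusted p = 1.24e-05).

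Most of the called genes were higher still at the next stages. In 206 of the 321 called strictly zygotic models (64.2%) all 3 libraries of stages 10 and 10.5 were above both of stage 9, beside 16.9% of all tested models, and in 19 (5.92%) all 3 were below, beside 29.7%. At stage 12, 179 (55.8%) were above in both libraries and 84 (26.2%) below, beside 23% and 47.8% of all models. The calls and these later comparisons share the stage 9 libraries, so the shares are descriptions. Of all 28293 tested models 19492 carry maternal RNA. The shares of all models, here and for the peak stages, are therefore not those of the strictly zygotic class. By mean level, 46 of the 321 (14.3%) peaked at stage 9, 166 (51.7%) at stage 10.5, 67 (20.9%) at stage 12 and 23 (7.17%) at stage 15. Of all tested models 18.5%, 6.88%, 6.05% and 10.5% peaked at these stages. Of the 116 called maternal models 89 were above stage 9 at stages 10 and 10.5 and 5 below. *mix1.L* averaged 34.4 TPM at stage 9 and had 424 and 504 TPM at stage 10.5 but 25.1 and 60.5 TPM at stage 12. *sp5l.L* was still at 566 and 594 TPM at stage 12. The next 3 models are among the 19 that were lower at stages 10 and 10.5 and were picked for this order of levels. *neurog3.L* had 5.55 and 12.7 TPM at stage 9 against 1.29, 0 and 0.03 TPM at stage 8, and then 0.42 to 1.47 TPM at stages 10 and 10.5. *hes7_S_X1* had 37.8 and 21.7 TPM at stage 9 against 4.99, 0.57 and 0.49 TPM at stage 8, and 2.82 to 8.84 TPM in the 3 libraries of stages 10 and 10.5, but 26.7 and 24.6 TPM at stage 12. The highest of the 19 at stage 9, the unnamed model Xelaev18019219m, had 203 and 302 TPM at stage 9 against 36.8, 2.62 and 5.58 TPM at stage 8 (log2 difference 4.56 ± 0.68, adjusted p = 7.87e-04) and then 13.1 to 37.2 TPM.

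**Figure D5:**
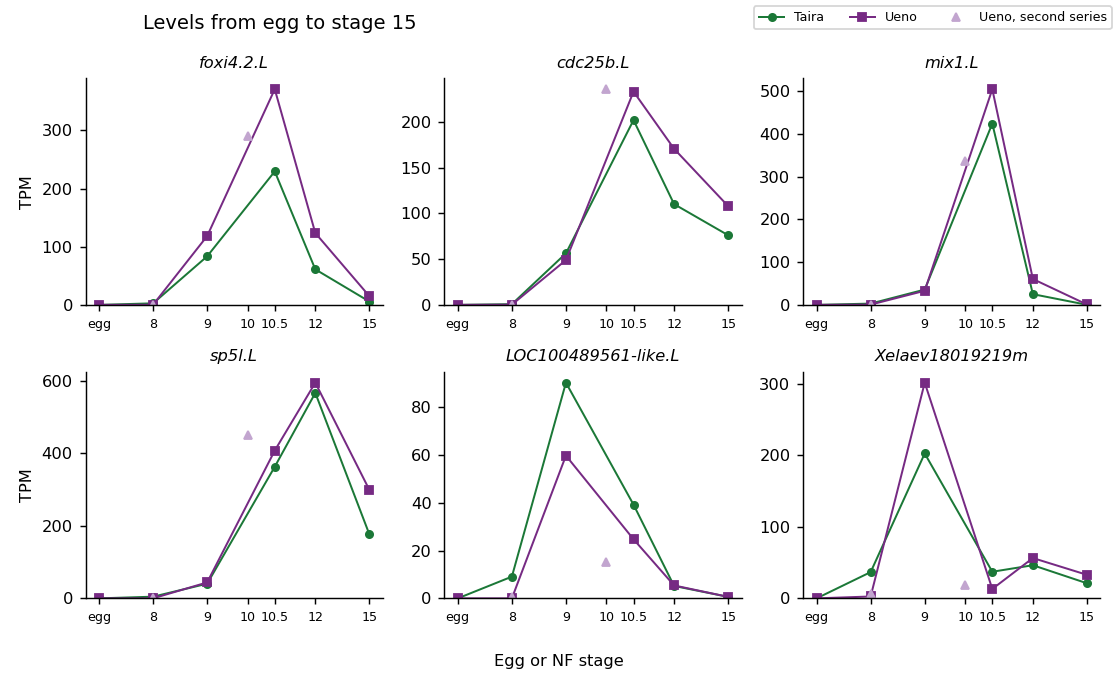
TPM (vertical axis, own scale per panel) from egg to stage 15 (horizontal axis, stages placed in order and not to time) of 6 strictly zygotic models called higher at stage 9; green circles are Taira, purple squares Ueno and pale triangles the second Ueno series (stages 8 and 10). *foxi4.2.L*, *cdc25b.L* and *mix1.L* peak at stage 10 or 10.5, *sp5l.L* at stage 12, and *LOC100489561-like.L* and Xelaev18019219m at stage 9 in both clutches.

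Called genes were also found side by side in the genome. RefSeq gene order (assembly Xenopus_laevis_v10.1, not the build of the deposited models) was matched by symbol for 10643 of 18702 named tested models, 156 of them called. Of these, 24 (15.4%) had a called gene as direct neighbour, beside 103 of the other 10487 (0.982%). The 12 runs were *pnhd* with *admp*, *mix1* with *mixer*, *sox17a* with *sox17b.1* and *ventx3.2* with *ventx1.2* in both subgenomes, and *zic4* with *zic1* (S), *irx2* with *irx1* (L), *pou5f3.2* with *pou5f3.1* (S) and *znf750* with *metrnl* (S). Most are known families of tandem duplicates. *pnhd* and *admp* encode unrelated secreted proteins: *pnhd.L* had 11.3 and 4.82 TPM at stage 9 against 0.14, 0 and 0 TPM at stage 8 and *admp.L* 16.5 and 7.35 TPM at stage 9 against 2.04, 0.09 and 0.02 TPM at stage 8, with both stages separate in both genes.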

How the data were processed

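PolyA RNA of whole embryos, eggs and oocytes was sequenced with a protocol that does not keep the strand, per the labels' protocols, so reads of overlapping antisense genes cannot be told apart. What the authors deposited is a TPM for each model of the JGIv18pV2 cDNA set, computed with BWA 0.7.10 and RSEM 1.2.19 per the submitters' processing notes. RSEM divides reads between similar copies, so tandem paralogs and homeologs are uncertain. TPM keeps no depth, so the depth per library is unknown and no counting interval is given.

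Log2(TPM + 1) was fitted in limma 3.58.1 (R 4.3.3) on stage with clutch as a block over 24 libraries (eggs and all embryo stages, with the second Ueno series), filtered at TPM of at least 1 in at least 2, eBayes with trend and 11 residual degrees of freedom. The library labelled stage 40 Ueno was left out because it correlates more closely with the eggs (Spearman 0.93 and 0.938) than with stage 40 Taira (0.703). Oocytes were used only to set the classes. The stages share 1 estimate of spread. The contrast was stage 9 minus stage 8, two-sided, adjusted by Benjamini-Hochberg. The second Ueno series is labelled with the Ueno clutch but a later date. Whether it came from the same mating is not given in the sources used here, and the block and its p-values treat it as the same clutch. Where nothing says that libraries come from separate animals, p-values measure only the spread between these libraries. Clutch is a label, and Taira minus Ueno differences at stages 8 and 9 correlated at r = 0.711 across 28293 models, so the block pairs the stages. Models are not independent replicates.

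The ratio test used log2(TPM + 1) of L minus S in pairs with 1 model each and a sum of at least 2 TPM in 2 of the 5 libraries. The limma fit of stage 9 minus stage 8 was tested on simulated data, and the ratio test was not. Named genes are members of 14 gene lists, the 15 largest called differences per class with a symbol, a mean of at least 10 TPM and no overlap (1 copy a gene), the 10 strictly zygotic models highest at stage 8, and 8 homeolog pairs with the largest called ratio change and a sum of at least 10 TPM. Some genes these rules take in are not reported here. Genes with a peak at stage 9 and unnamed models beyond these rules were chosen after their values were seen. The members and lists were chosen with earlier results of these data known. Alternatives were pseudocounts, filters, scalings, class limits, sets of libraries, the block, the trend and each library left out.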

Additional observations from a re-analysis of the deposited data

How the results depend on the processing

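More models were called higher than lower at stage 9 under every alternative run, but the counts moved by over 1.5 times in several. Strictly zygotic models higher at stage 9 numbered 321 and became 517 with a pseudocount of 0.1 and 189 with 5, 188 with median-of-ratios scaling, 172 with quantile normalization, 210 with the 5 libraries of both stages alone, and 176 with a class limit of 0.1 TPM. They ranged from 177 to 276 with 1 library left out. Maternal models higher numbered 116 and became 66 with quantile normalization, 72 with no replicate block, 57 with the library labelled stage 40 Ueno, 22 with the 5 libraries alone, 261, 73 and 57 with class limits of 0.1 TPM, 2 TPM and 1 TPM in eggs only, and 73 to 111 with 1 library left out. With no replicate block the strictly zygotic count was 251. These totals are not all the same models. Of the 321 strictly zygotic calls, 98 were also called with the 5 libraries alone and 169 with quantile normalization. Of the 116 maternal calls, 13 were also called with the 5 libraries alone and 61 with quantile normalization. Models called lower, 0 in the fit reported, were 2 zygotic with a pseudocount of 0.1, 4 zygotic and 2 maternal with no filter, 3 maternal with a pseudocount of 5, 1 of each class with a filter on the 5 libraries or quantile normalization, 1 maternal without the trend, with the stages to 12 or with the 5 libraries alone, 1 zygotic with the staged series alone, and 0 to 1 zygotic and 0 to 2 maternal with 1 library left out. The 38 homeolog pairs became 18 with a sum of at least 10 TPM, 25 with median-of-ratios scaling, 20 with quantile normalization, 17 with stage 40 Ueno, 22 with the staged series alone, and 5 to 40 with 1 library left out.

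Of 101 called named models 15 were called under all 18 alternatives, 76 were not called with the 5 libraries alone (where fewer samples remain) and 25 not without stage 9 Taira. None of the 101 changed sign. Among uncalled models near 0, log2 differences that changed sign were, for *znf238.2.L*, -0.026 with quantile normalization and -0.33 to 0.43 with 1 library left out. For *sh3pxd2b.S* they were 0.048 with no replicate block, 0.0073 with the 5 libraries and -0.29 to 0.18 with 1 library left out. For *tnrc6c-like.S* they were -0.013 with quantile normalization and -0.073 to 0.27 with 1 library left out. The cause was not tested.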

Other observations

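One unnamed model, Xelaev18003967m, was strongly present in the second Ueno series and nowhere else. It had 552 TPM at stage 8, 617 TPM at stage 10 and 370.1 TPM at stage 35 of that series, and was listed at 0 in each of the other 25 libraries, the Taira and Ueno libraries of stages 8 and 35 among them. It was the only one of 45831 models with at least 10 TPM in all 3 second-series libraries and under 1 TPM in every other library. It has the highest stage 8 mean of any strictly zygotic model, and that mean rests on 1 library. The model was picked for this pattern, and its origin was not tested.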
